A study of Mus musculus with 6 samples.

Results

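The lineage described here is the set of PB3 cells that carry the lentiviral barcode bc14-6-bc30-93034. Its members are all cells to which the latest of the authors' 3 successive barcode calls gave that barcode: 2253 of the 51785 cells and nuclei in the deposited table, and 8.24% of the 27342 that have 1 called barcode and are called barcoded cells below. The barcode was chosen from results of these same data, in which its cells were frequent after treatment and lay in cluster 8. Its shares and clusters are therefore given as a description, with no test. The label of a cluster 8 lineage that outlasts treatment holds for some conditions only. Cluster 8 was the commonest cluster of the lineage in ERI4 cells, ERI3, PAC1 and PAC3, but not in ERI1, ERI2 or PAC2, in either set of nuclei, or in untreated cells.

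PB3 is a mouse mammary tumour cell line, here with a library of lentiviral barcodes. Treated cells had eribulin or paclitaxel in repeated rounds, and the compared states were captured in 6 libraries over 3 runs. ERI4 cells (4 rounds of eribulin) and UNT cells (no drug) came from run 1 as 1 library each. ERI1, ERI2 and ERI3 (1, 2 and 3 rounds of eribulin) shared a library of run 2 and were told apart by hashtag oligos, and PAC1, PAC2 and PAC3 (1, 2 and 3 rounds of paclitaxel) shared the other. ERI4 nuclei and UNT nuclei came from run 3, from the RNA side of an assay that also reads chromatin. In every eribulin round the drug stood at 500 nM over 72 h, with 48 h to recover. Paclitaxel stood at 100 nM over 72 h in the first round and at 250 nM in later ones, and the labels give the recovery after the first round as 48 h but state no length, or no recovery, after the last. Each condition is 1 library or 1 hashtag of a library, and the labels do not say whether successive rounds came from the same flask, so nothing below is set against the spread between cultures.

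A lentiviral barcode inserts into the genome of the infected cell and is copied to its daughters, so cells with the same barcode are read as descendants of the same infected cell. More than 1 founder can take up the same barcode, and the files give no insertion site. Eribulin blocks the growing ends of microtubules and paclitaxel stabilises microtubules. Both disturb the mitotic spindle and are used against breast cancer. The share of a lineage among barcoded cells is relative, so it can be high because its cells multiplied or because other lineages were lost, and the deposited table does not tell these apart.

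The barcodes are designed sequences of 48 bases, built from a part of 14 bases, a linker of 4 bases and a part of 30 bases. The lineage is shown first, with its 14-base and 30-base parts in capitals and the linker in lower case. The other sequences are shown because they set the scale of a possible misreading and because these lineages share treated conditions with it. In them, capitals mark the bases that differ from the lineage's barcode at the same position. bc14-55-bc30-23349 and bc14-76-bc30-49517 were the most frequent other barcodes over ERI3 and ERI4 cells, bc14-95-bc30-33662 was the most frequent other barcode of cluster 8 in ERI4 cells, and bc14-71-bc30-88522 had the most similar order of shares over conditions.
bc14-6-bc30-93034: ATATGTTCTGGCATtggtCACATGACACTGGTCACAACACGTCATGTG
bc14-55-bc30-23349: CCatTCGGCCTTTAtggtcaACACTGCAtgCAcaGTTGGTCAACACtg
bc14-76-bc30-49517: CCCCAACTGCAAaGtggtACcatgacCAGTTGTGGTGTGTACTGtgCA
bc14-95-bc30-33662: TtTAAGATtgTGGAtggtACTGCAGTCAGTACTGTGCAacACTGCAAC
bc14-71-bc30-88522: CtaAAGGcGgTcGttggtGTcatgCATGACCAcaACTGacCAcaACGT

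The 4 comparison barcodes differed from the lineage's at 28 to 39 of the 48 bases. The designed list holds 10000000 barcodes, every combination of 100 14-base and 100000 30-base parts. In all of them the linker was the same, and every 30-base part was made only of the pairs AC, CA, GT and TG. The nearest other 14-base part differed from the lineage's at 6 bases, and the nearest 30-base parts, 9 of them, at 8 bases. Among the 696 other barcodes called in at least 1 cell, the nearest differed at 16 bases. Fewer than 16 misread bases would therefore not turn another called barcode into this one. The 30-base part was called with no other 14-base part. The 14-base part was shared by 16 other called barcodes, with 208 cells. Of these, 65 were UNT cells, 125 UNT nuclei, 13 ERI1, 3 ERI3 and 2 PAC1, and none was in any other condition.

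The lineage was rare without drug and frequent after 4 rounds of eribulin. It made up 667 of 6725 barcoded ERI4 cells, 9.92% (exact Clopper-Pearson 95% interval 9.21 to 10.7, given likewise in parentheses below and covering counting error only), against 15 of 5087 barcoded UNT cells, 0.295% (0.165 to 0.486). The ratio of the shares was 33.6 (20.2 to 60.4). It ranked as number 3 of 16 barcodes seen in ERI4 cells and number 84 of 506 in UNT cells. Among the 68 barcodes with at least 20 cells over both conditions, 8 had a share at least 2-fold higher in ERI4 cells, which is 11.8%, and the lineage had the fourth highest ratio. Of the ERI4 cells of the lineage 473 held more than 1 detected barcode, and of its UNT cells 13 of 15 did. The first revision of the call had named 66 of the 667 ERI4 cells Doublet or Multiplet, and the original call 169. Each of these earlier calls had named 9 of the 15 UNT cells so. With only the cells of exactly 1 detected barcode the lineage had 194 of 3224 ERI4 cells and 2 of 638 UNT cells, a ratio of 19.2. With all cells of each condition as the denominator, called or not, the ratio was 52.7.

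In nuclei the lineage held 425 of 1495 barcoded ERI4 nuclei, 28.4% (26.2 to 30.8), and 12 of 4935 barcoded UNT nuclei, 0.243% (0.126 to 0.424). The ratio was 117 (66.2 to 228). Of 73 barcodes with at least 20 nuclei, 9.59% had a share at least 2-fold higher in ERI4 nuclei, and the lineage had the second highest ratio. The share in ERI4 nuclei depends on the barcode call. Under the first revision of the call it was 346 of 4245 nuclei, 8.15% (7.34 to 9.01), with a ratio to UNT nuclei of 32.9, and under the original call 56 of 449, 12.5% (9.56 to 15.9), with a ratio of 25.7. The ratio was 40.3 over all nuclei and 177 within a window of UMI counts common to both. The share was thus far higher in ERI4 nuclei under each of the 3 calls, but the calls do not name the same nuclei. Of the 346 nuclei of the first revision, 42 were given the lineage by the latest call, 253 were called Negative by it, 45 carried another barcode, and 138 had no detected barcode. Of the 425 nuclei of the latest call, the first revision had named 191 Negative, 164 as 55-23349 and 17 as 76-49517. In UNT nuclei all 3 calls named the same 12 nuclei. Under the latest call other lineages also differed between ERI4 cells and ERI4 nuclei. The share was 68.4% in cells and 10.1% in nuclei for 55-23349, and 6.42% and 30.2% for 76-49517. For 95-33662 it was closer, with 10.7% and 12.6%.

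Across rounds of eribulin in run 2, the share was high after 1 round, low after 2 and highest after 3. It was 7.67% (6.31 to 9.22) in ERI1 with 104 of 1356 barcoded cells, 1.47% (0.787 to 2.51) in ERI2 with 13 of 882, and 25.01% (23.2 to 26.9) in ERI3 with 554 of 2215. ERI2 stood at 0.192 times the share of ERI1 (0.0990 to 0.343), and ERI3 at 17.0 times that of ERI2 (9.84 to 32.1). Neither interval reaches a ratio of 1, and the ratio of ERI2 to ERI1 was 0.126 under the first revision of the call and 0.123 under the original call. Each of these earlier calls had named 5 of the 13 ERI2 cells Doublet or Multiplet. A share at least 2-fold lower in ERI2 than in ERI1 was common, as 47.8% of the 23 barcodes with at least 20 cells had one, so the lineage's drop is near what other barcodes did. A share at least 2-fold higher in ERI3 than in ERI2 was found in 21.4% of 14 barcodes, and the lineage had the second highest ratio. It was the most frequent barcode of ERI1, number 14 of 65 in ERI2 and number 2 of 63 in ERI3.

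Under paclitaxel the lineage was frequent already after 1 round. It had 259 of 1792 barcoded PAC1 cells, 14.5% (12.9 to 16.2), then 39 of 569 PAC2 cells, 6.85% (4.92 to 9.25), and 165 of 2286 PAC3 cells, 7.22% (6.19 to 8.36). It was the most frequent of 141 barcodes in PAC1 and number 3 in both PAC2 and PAC3. The PAC2 share was 0.474 times that of PAC1 (0.330 to 0.666), and 34.6% of 26 barcodes had a share at least 2-fold lower. The PAC3 share was 1.05 times that of PAC2 (0.739 to 1.53), an interval that includes 1, and it was 0.897 under the original call and 0.933 with exactly 1 detected barcode, so no direction is given. Of 15 barcodes 26.7% were at least 2-fold higher in PAC3 than in PAC2. PAC2 is the smallest condition of the series, with 848 cells.

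Between drugs after the same number of rounds, the lineage was less frequent under eribulin after 1 and 2 rounds and more frequent after 3. The ratio of ERI1 to PAC1 was 0.531 (0.419 to 0.669), short of 2-fold, where 39.5% of 38 barcodes were at least 2-fold lower in ERI1. The ratio of ERI2 to PAC2 was 0.215 (0.105 to 0.412), where 35.7% of 14 barcodes were at least 2-fold lower in ERI2. The ratio of ERI3 to PAC3 was 3.47 (2.91 to 4.15), where 37.5% of 16 barcodes were at least 2-fold higher in ERI3. At least 35.7% of the barcodes passed 2-fold in each of these comparisons, so a lineage past it is near the background there. Doses, drugs and library differ together between the ERI and PAC conditions and cannot be told apart.

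The clusters of the lineage changed with the rounds. The cluster numbers are the authors', made over all libraries together. In untreated cells 14 of the 15 cells of the lineage lay in cluster 1 and the other in cluster 6. Of the other barcoded UNT cells 58.6% (57.2 to 59.9) were in cluster 1, and 1336 of 5072 in cluster 5, where the lineage had none of its 15. After 1 round of eribulin 94 of 104 cells of the lineage were in cluster 7, and 92.1% of the other barcoded cells were too. The lineage already had 9 cells in cluster 8, 8.65% (4.03 to 15.8), against 0.399% (0.130 to 0.929) of other barcoded ERI1 cells. In ERI2 it had 12 cells in cluster 7 and 1 in cluster 8.

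After 3 rounds of eribulin the lineage and the other barcodes lay apart. In ERI3, 497 of its 554 cells were in cluster 8, 89.7% (86.9 to 92.1), against 7.16% (5.97 to 8.51) of the others, and 14 were in cluster 2, which held 61.4% of the others. In ERI4 cells 601 of 667 were in cluster 8, 90.1% (87.6 to 92.3), against 12.5% (11.7 to 13.4) of the others. A further 36, or 5.40% (3.81 to 7.39), were in cluster 3, which held 74.1% of the others. All 36 had 2 or more detected barcodes, a median of 33333 UMIs (counted RNA molecules) and a median of 59 barcode counts. The 601 cells in cluster 8 had medians of 20485 UMIs and 33 barcode counts, and 192 of them had exactly 1 detected barcode. Whether the 36 are captures of more than 1 cell was not tested. Of the 6058 other barcoded ERI4 cells 4597 were 55-23349, which had 4431 cells in cluster 3, so the contrast in ERI4 cells is largely with that barcode. The barcode 95-33662 had 651 of its 719 ERI4 cells in cluster 8, 90.5% (88.2 to 92.6), close to the 90.1% of the lineage.

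Under paclitaxel the lineage was less concentrated in cluster 8 than in ERI3 and ERI4 cells. In PAC1 113 of its 259 cells were in cluster 8, 43.6% (37.5 to 49.9), against 4.24% (3.29 to 5.37) of the others, 74 in cluster 6, 28 in cluster 7 and 24 in cluster 1. In PAC2 22 of 39 were in cluster 7 and 9 in cluster 8, a cluster 8 share of 23.1% (11.1 to 39.3) against 1.13% (0.417 to 2.45) of the others. In PAC3 99 of 165 were in cluster 8, 60.0% (52.1 to 67.5), against 0.519% (0.259 to 0.926) of the others. Cluster 8 thus took a larger share of the lineage than of other barcodes in every condition of runs 1 and 2 with drug. In ERI2 this rests on 1 of 13 cells, 7.69% (0.195 to 36.0), against 0.345% (0.0713 to 1.01) of the others, with overlapping intervals. In PAC3 the lineage also had 23 cells in cluster 1 and 24 in cluster 6. These were 13.9% and 14.5% of the lineage, against 0.377% and 3.96% of the others, and the lineage supplied 23 of the 31 barcoded PAC3 cells of cluster 1, the main cluster of untreated cells.

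A cluster rich in other barcodes under paclitaxel was nearly empty of the lineage. Cluster 9 held 5 of 259 cells of the lineage in PAC1, 1.93% (0.630 to 4.45), against 28.2% (25.9 to 30.5) of the others. In PAC2 it held 2 of 39, against 44.2% of the others, and in PAC3 4 of 165, or 2.42% (0.664 to 6.09), against 40.6% (38.5 to 42.8). Cluster 2 held 9 of the 165 PAC3 cells of the lineage, 5.45% (2.52 to 10.1), against 51.9% (49.7 to 54.0) of the others.

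Nuclei of the lineage did not gather in cluster 8 as the cells did. Over all barcodes, called or not, clusters 4 and 10 held 4693 and 2121 of the 8711 ERI4 nuclei, but 86 and 157 of the 9331 ERI4 cells. Nuclei and cells differ in run and assay together, and these cannot be told apart. In ERI4 nuclei 187 of 425 were in cluster 10, 44.0% (39.2 to 48.9), against 41.2% of other barcoded nuclei, and 135 in cluster 4, 31.8% (27.4 to 36.4), against 30.3%. Cluster 8 held 65, which is 15.3% (12.01 to 19.1), against 6.07% (4.72 to 7.68) of the others. Of the 12 UNT nuclei 6 were in cluster 0, 3 in cluster 6, 2 in cluster 8 and 1 in cluster 11. Among the 304 ERI4 nuclei that the first revision but not the latest call gave the lineage, 9 were in cluster 8, 2.96% (1.36 to 5.55). Among the 383 that the latest call alone gave it, 58 were, 15.1% (11.7 to 19.1).

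Read from the cluster, the lineage supplied much of cluster 8. It made up 601 of 1358 barcoded cluster 8 cells in ERI4 cells, 44.3% (41.6 to 46.9), where 95-33662 made up 651 and 9 other barcodes the rest. In UNT cells it had none of the 13 barcoded cluster 8 cells. In ERI3 it had 497 of 616, 80.7% (77.3 to 83.7), in PAC1 113 of 178, 63.5% (56.0 to 70.6), and in PAC3 99 of 110, 90% (82.8 to 94.9). Smaller counts were 9 of 14 in ERI1, 1 of 4 in ERI2 and 9 of 15 in PAC2. In ERI4 nuclei it had 65 of 130, and in UNT nuclei 2 of 23. The most frequent other barcode of cluster 8 was 95-33662 in ERI3, with 101 cells, 18-28871 in PAC1, with 27, and 92-83570 in PAC3, with 5.

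Position in the authors' UMAP, a map that places cells with similar profiles near each other on an arbitrary scale, was read through the 30 nearest barcoded cells of the same condition. In ERI4 cells a mean of 80.8% of these neighbours carried the lineage's own barcode, where its share of barcoded cells was 9.92%. The mean was 84.3% in ERI3, against a share of 25.01%, and 75.7% in PAC3, against 7.22%. It was 38.1% in PAC1, against 14.5%, 18.8% in ERI1, against 7.67%, and 16.8% in PAC2, against 6.85%. In ERI2 it was 1.54% beside a share of 1.47%, and in UNT cells 0.667% beside 0.295%, from 13 and 15 cells. The lineage was thus gathered in the map in ERI3, PAC3 and ERI4 cells, and less so in PAC1, ERI1 and PAC2. In ERI2 and UNT cells few cells limit how many of the 30 neighbours can carry the barcode, but the means lay far below that limit. No gathering was thus seen there, from few cells. For 95-33662 in ERI2, with 17 cells, the mean was 11.4% beside a share of 1.93%. Other frequent lineages were gathered as well. In ERI4 cells the mean was 85.8% for 95-33662, with a share of 10.7%, 84.5% for 76-49517, with 6.42%, and 96.7% for 55-23349, with 68.4%. In PAC3 it was 90.3% for 76-49517, with a share of 48.9%, and in ERI3 62.2% for 76-49517, with 37.9%, and 59.6% for 95-33662, with 5.42%. In ERI4 nuclei the mean for the lineage was 34.9%, against a share of 28.4%, and in UNT nuclei 0.

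In ERI4 cells and ERI3 the lineage and 95-33662 shared cluster 8 but lay largely apart within it. Within cluster 8 of ERI4 cells, 90.2% of the nearest neighbours of the lineage's cells carried its own barcode, though 55.7% of the barcoded cells there carried others. The median position of the lineage in ERI4 cells was -6.73 on the first axis and 1.52 on the second, and that of 95-33662 was -7.60 and 0.17. The median pseudotime was 17.2 in the lineage, with quartiles of 16.8 and 17.7, and 18.5 in 95-33662, with quartiles of 18.3 and 18.5. In ERI3 the lineage had 94.2% of its cluster 8 neighbours from its own barcode, where 19.3% of the barcoded cells carried others. In cluster 8 of ERI4 nuclei 51.9% of the neighbours of the lineage carried its barcode, close to its share there, since it made up 65 of 130 barcoded nuclei and 95-33662 made up 40.

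The map was also read across conditions, by the 30 nearest cells of the lineage itself from any condition. For PAC3 cells of the lineage, 35.1% of these were ERI3 cells, 34.9% PAC1 cells and 26.8% PAC3 cells. PAC3 cells, which are 7.32% of the lineage, thus lay among its ERI3 and PAC1 cells. A condition with more cells can supply more neighbours, so each neighbour share is read beside that condition's share of the lineage. For PAC1 cells, which are 11.5% of the lineage, 26.0% were ERI3, 43.1% PAC1 and 22.6% PAC3. For ERI3 cells, which are 24.6% of the lineage, 73.4% were ERI3, 10.4% PAC1 and 9.65% PAC3. ERI4 cells of the lineage stood apart, with 95.9% of neighbours from ERI4 cells and 1.06% from ERI3, and ERI4 nuclei likewise, with 99.6% from ERI4 nuclei. ERI4 cells, the run 2 conditions and the nuclei differ in run as well as in rounds, and the part of the run was not tested. In PAC2 the lineage's neighbours were 33.0% ERI1, 16.2% PAC1, 15.4% ERI3 and 13.6% PAC2 cells.

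Pseudotime is the authors' distance along a graph of cell states from the untreated cells, on an arbitrary scale. In ERI3, ERI4 cells and the 3 paclitaxel conditions the lineage lay nearer to that root than other barcodes. Its median was 17.2 in ERI4 cells (quartiles 16.8 and 17.7), against 29.2 (26.1 and 30.5) in other barcoded ERI4 cells, and it was the lower of a pair of cells in 94.7% of all pairs. Of those 6058 other cells 4597 were 55-23349, with a median of 30.0, while 76-49517 had 25.7 and 95-33662 had 18.5. In ERI3 the medians were 15.6 in the lineage and 22.6 in the others, with the lineage lower in 90.3% of pairs. Of those 1661 others 839 were 76-49517, with a median of 22.6. The median of 95-33662 was 15.6, like that of the lineage, and 71-88522 had 14.9, from 8 cells. In PAC3 the medians of the lineage and the others were 15.6 and 21.7, with the lineage lower in 93.7% of pairs. In PAC1 they were 15.4 and 18.1, with 70.3%, and in PAC2 14.9 and 20.5, with 68.5%. Of the 2121 other PAC3 cells 1118 were 76-49517, with a median of 21.0. In PAC1 95-33662 had 13.9, from 9 cells, and 76-49517 had 20.4. Within cluster 7, the main cluster of the lineage in PAC2, its median was the higher, with 14.6 (13.7 to 14.8) against 13.9 (13.8 to 14.2) and overlapping intervals.

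After 1 round of eribulin the order was the other way. In ERI2 and without drug the median of the lineage was also the higher, but with overlapping intervals. The median of the lineage was 14.2 (14.1 to 14.6) in ERI1, against 13.6 (13.5 to 13.6) in the others, and 14.3 (13.7 to 14.7) in ERI2, against 13.7 (13.7 to 13.8). It was higher in 74.2% of pairs in ERI1 and in 63.0% in ERI2. In UNT cells the medians were 9.12 (7.60 to 10.7) in the lineage, from 15 cells between 7.08 and 18.8, and 7.59 (7.56 to 7.70) in the others. Within cluster 1 of UNT cells they were 9.07 and 8.27. In ERI4 nuclei the medians were 24.0 in the lineage and 24.5 in the others, and in UNT nuclei 14.1 (10.6 to 15.3) and 13.5 (13.4 to 13.6). Between ERI1 and ERI3 the median of the lineage thus moved by less than that of the other barcodes.

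The difference in pseudotime was far smaller among cells of cluster 8 alone. There the median of the lineage minus that of the others was -1.27 in ERI4 cells, against -12.02 over all clusters, and the intervals of the medians still lay apart, with 17.2 (17.1 to 17.2) in the lineage and 18.5 (18.5 to 18.5) in the others. In ERI3 and PAC3 both medians in cluster 8 were 15.6, and in PAC1 they were 15.4 and 15.4. Many cells share a value: 229 of the 554 ERI3 cells of the lineage, 41.3% (37.2 to 45.6), had a pseudotime of 15.5799, as did 49 of the 165 PAC3 and 24 of the 259 PAC1 cells. Of the other barcodes 49 of 1661 ERI3 cells, 6 of 2121 PAC3 cells and 16 of 1533 PAC1 cells had that value. The 36 ERI4 cells of the lineage in cluster 3 had a median of 29.5, close to the 30.0 of the other barcodes there.

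Cell cycle phases were set from the deposited S and G2M scores (G1 where neither is above 0, otherwise the higher score), which the nuclei lack. By these calls the S share of the lineage lay above that of the others in ERI4 cells, ERI1 and ERI3. In ERI4 cells 28.2% (24.8 to 31.8) of the lineage and 19.1% (18.1 to 20.1) of the others were in S. The shares were 38.5% (29.1 to 48.5) and 24.2% (21.9 to 26.7) in ERI1, and 22.6% (19.1 to 26.3) and 16.8% (15.03 to 18.7) in ERI3. Of these 3 conditions, the intervals of the median S score lay apart in ERI4 cells, with -0.108 (-0.142 to -0.0849) in the lineage and -0.170 (-0.176 to -0.165) in the others. In ERI1 the medians were -0.0624 (-0.105 to 0.0103) and -0.109 (-0.125 to -0.0975), and in ERI3 -0.144 (-0.168 to -0.117) and -0.153 (-0.162 to -0.142), with overlapping intervals. With a threshold of 0.05 for G1 the S shares were 24.1% (20.9 to 27.6) and 15.6% (14.7 to 16.5) in ERI4 cells, 26.9% (18.7 to 36.5) and 20.1% (17.9 to 22.5) in ERI1, and 17.3% (14.3 to 20.7) and 12.1% (10.6 to 13.8) in ERI3, so the intervals overlap in ERI1. In UNT cells 8 of the 15 cells of the lineage were in S, a share of 53.3% (26.6 to 78.7), against 31.8% (30.6 to 33.1) of the others, and in ERI2 4 of 13 were. Among the other lineages of ERI4 cells the S share was 15.5% (14.5 to 16.6) in 55-23349, 32.4% (28.0 to 37.0) in 76-49517 and 30.7% (27.4 to 34.3) in 95-33662, so the lineage lay near the last 2 and above the first, which is the most frequent barcode of ERI4 cells.

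Under paclitaxel the S shares were close, with 23.9% (18.9 to 29.6) of the lineage and 23.9% (21.8 to 26.1) of the others in PAC1, and 20.5% (9.30 to 36.5) and 18.1% (14.9 to 21.7) in PAC2. In PAC3 they were 23.6% (17.4 to 30.9) and 17.6% (16.03 to 19.3), with overlapping intervals. The G2M share of the lineage was 33.4% (29.9 to 37.2) in ERI4 cells, against 39.5% (38.2 to 40.7) of the others, and 35.7% (31.7 to 39.9) in ERI3, against 42.7% (40.4 to 45.2). In PAC1 it was 44.4% (38.3 to 50.7), against 37.7% (35.3 to 40.2), and in PAC3 47.9% (40.1 to 55.8), against 44.3% (42.2 to 46.5). Within the lineage the G2M share was higher in cluster 6 than in cluster 8 in PAC1 and PAC3, with overlapping intervals. In PAC1 42 of 74 cells in cluster 6 were in G2M, 56.8% (44.7 to 68.2), and in cluster 8 42 of 113, 37.2% (28.3 to 46.8). In PAC3 the shares were 62.5% (40.6 to 81.2) and 46.5% (36.4 to 56.8).

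The mitochondrial share of UMIs, which is often high in damaged cells, had medians in the lineage close to those of the others in most conditions, but not within cluster 8 of the late eribulin rounds. Over all clusters its median was 4.64% in ERI4 cells, against 4.71% in the others, and 4.25% in UNT cells, against 4.04%. In ERI1, ERI3, PAC1, PAC2 and PAC3 the medians of the lineage lay between 2.63% and 2.99% and those of the others between 2.59% and 3.03%. The widest gap in run 2 was in ERI2, with 4.54% in 13 cells of the lineage and 3.65% in the others. In ERI4 nuclei the medians were 13.1% (12.7 to 13.9) in the lineage and 14.5% (14.2 to 14.8) in the others, with intervals apart, and in UNT nuclei 9.90% and 9.45%. In cluster 8 alone the lineage was the higher in 2 conditions, with 4.64% (4.57 to 4.70) against 4.02% (3.96 to 4.10) in ERI4 cells and 2.95% (2.84 to 3.03) against 2.51% (2.35 to 2.66) in ERI3. The others there were mostly 95-33662, with 651 of 757 in ERI4 cells and 101 of 119 in ERI3. In cluster 8 of PAC1 the lineage was the lower, with 2.97% (2.83 to 3.11) against 3.11% (2.74 to 3.38). It was also the lower in PAC3, with 2.61% (2.51 to 2.74) against 2.88% (2.23 to 3.75), and in ERI1 and PAC2, from 9 cells each. These intervals all overlap.

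Depth differed more. The median was 21087 UMIs in ERI4 cells of the lineage and 21011 in the others, but 14681 and 20560 in UNT cells. It was 13459.5 and 17466 in ERI1, 16836 and 18103 in ERI2, and 10412 and 11806 in ERI3. In PAC1 it was 10918 in the lineage and 11694 in the others, in PAC2 17700 and 17440.5, and in PAC3 11389 and 13050. The lineage was thus the shallower except in ERI4 cells and PAC2, and the gap was widest in UNT cells and ERI1, where its S share was also the higher. Among cells of like depth, between the same UMI bounds in each condition of a run, the S shares of the lineage and the others were 30.4% (26.6 to 34.3) and 20.6% (19.5 to 21.8) in ERI4 cells, 42.4% (29.6 to 55.9) and 26.3% (22.9 to 29.9) in ERI1, and 26.5% (21.8 to 31.7) and 20.2% (17.9 to 22.6) in ERI3, with overlapping intervals in ERI1 and ERI3. Barcode counts, the sum over all barcodes read in a cell, had a higher median in the lineage in all treated cell conditions. It was 34 in ERI4 cells of the lineage and 28 in the others, but 17 and 21 in UNT cells. It was 11 in ERI3 cells of the lineage and 4 in the others, 9 and 6 in PAC1, 15 and 7 in PAC2, and 10 and 4 in PAC3.

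Among 163 barcodes with at least 20 cells, the order of shares over the 10 conditions was most like the lineage's in 71-88522, with a Spearman correlation of 0.74, from 55 cells, then in 95-33662, with 0.66, and in 76-49517, with 0.54. The conditions share their barcode pool and differ in depth, so these are descriptions. 71-88522 had 9 of its 15 ERI4 cells and 4 of its 8 ERI3 cells in cluster 8, and no cell in PAC2 or PAC3. 95-33662 had 84.2% (76.4 to 90.2) of its ERI3 cells in cluster 8, 0 of 569 barcoded PAC2 cells (3 cells would make 0.527%) and 1 of 2286 PAC3 cells. The lineage, with 6.85% and 7.22% there, was frequent after 3 rounds of either drug, and 95-33662 was frequent after eribulin, with 10.7% (9.96 to 11.5) of barcoded ERI4 cells.

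Cell barcodes, the tags of droplets, were shared by more than 1 library in 245 cases in the series. Of the lineage's cells 13 had such a tag, and in 1 case both cells of the shared tag belonged to the lineage. No cell of the lineage fell outside the authors' stated filter, and none lacked a detected barcode. The share of the lineage's cells with 2 or more detected barcodes was 70.9% (67.3 to 74.3) in ERI4 cells, against 50.0% (48.7 to 51.3) of the others, and in ERI3 7.58% (5.52 to 10.1), against 10.5% (9.10 to 12.1). In PAC1 it was 9.27% (6.03 to 13.5), against 24.5% (22.3 to 26.7).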

How the data were processed

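The data are 6 libraries of single PB3 cells or nuclei, read as RNA with lentiviral barcodes. Reads were counted on mm10, per the submitters' processing notes and the design text, with Cell Ranger 3.1.0 (run 1), Cell Ranger 4.0.0 (run 2) and Cell Ranger ARC 1.0.0 (run 3), filtered and clustered with Seurat 3.1.4, and ordered with Monocle3 0.2.1 from untreated root cells. The stated filter removes cells under 200 genes or over 50% mitochondrial or ribosomal UMIs, and 179 cells outside it remain in the table. The authors deposited, per cell, counts of UMIs, genes, barcode reads or molecules (which is not stated) and barcode features, without normalization. The percent values they deposited are mitochondrial shares of UMIs. The score columns deposited by the authors hold the S and G2M phase scores, pseudotime and UMAP coordinates, all on arbitrary scales. Clusters and barcode calls were taken as deposited, and the rule behind each call is not given in the sources used here. Gene and chromatin matrices were not analysed here.

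Conditions came from the deposited condition names after each library was matched to the labels. The table calls 20484 cells Negative, 3126 Doublet and 737 Multiplet, and doublets were handled only through these calls, with no doublet caller run and no class for hashtag doublets. Nuclei of run 3 all have at least 1 barcode feature, so 1 was subtracted there. Shares are over cells with 1 called barcode, with exact 95% intervals, and a share of 0 is given with the share that 3 cells would make. A ratio against 0 uses those 3 cells. Barcodes with at least 20 cells over both conditions of a comparison give the share of barcodes past 2-fold. Median UMIs per condition were 11266.5 to 20877 in cells and 2089 to 3427.5 in nuclei. Each condition has 1 library, so values are described and none was tested. The lineage, the measures and the barcodes set beside it were chosen with earlier results of these data known. The barcodes named beside it are the most frequent 2 others over ERI3 and ERI4 cells, the most frequent other barcode of cluster 8 in ERI4 cells, those sharing a part of its sequence, and the one with the most similar order of shares. The leading other barcodes of cluster 8 in ERI3, PAC1 and PAC3 were named after their values were seen. Alternatives were the 2 earlier calls, all cells as denominator, exactly 1 detected barcode, the stated filter without cluster 13, a common UMI window (12026 to 36015 in run 1, 8785.2 to 19690.5 in run 2 and 2176.5 to 4971 in run 3), another G1 threshold, the mean, the main cluster alone and 10 or 100 neighbours. Scripts used Python 3.11.15 with pandas 2.3.3, numpy 2.4.6 and scipy 1.17.1 and were tested on simulated data.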

Additional observations from a re-analysis of the deposited data

Results flagged for a closer look

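Of 42 comparisons of a change in the lineage under one drug or in cells with the matching change under the other drug or in nuclei, 12 went in opposite directions. None of these differences was tested, since every condition is 1 library. The share of barcoded cells was 17.3 percentage points higher in ERI3 than in ERI1, while PAC3 minus PAC1 was -7.24. The share of the lineage in cluster 6 was 1.99 points higher in ERI3 than in ERI1, while PAC3 minus PAC1 was -14.0. The G2M share of ERI3 minus that of ERI1 was -1.76 points, and PAC3 minus PAC1 was 3.48. ERI2 minus ERI1 was -6.73 points in the G2M share, and PAC2 minus PAC1 was 1.75. The S share of ERI3 minus that of ERI2 was -8.21 points, and PAC3 minus PAC2 was 3.12. These phase shares rest on 13 cells in ERI2 and 39 in PAC2.

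Median pseudotime moved by 0.0650 in ERI2 minus ERI1 and by -0.515 in PAC2 minus PAC1. The median mitochondrial percentage moved by 1.55 in ERI2 minus ERI1 and by -0.340 in PAC2 minus PAC1. Median UMIs of ERI3 minus ERI1 were -3047.5, and of PAC3 minus PAC1 471. Median genes of ERI3 minus ERI1 were -458.5, and of PAC3 minus PAC1 73.

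Between cells and nuclei, ERI4 minus UNT was 6406 in median UMIs in cells and -1422 in nuclei. In median genes it was 804 in cells and -520.5 in nuclei. The share of the lineage in cluster 8 was 90.1 points higher in ERI4 than in UNT cells, while in nuclei the difference was -1.37 points, from 65 of 425 ERI4 nuclei and 2 of 12 UNT nuclei. In the column with the first revision of the barcode call, which the comparisons above do not use, 304 ERI4 nuclei carried the lineage that the latest call does not give it to.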

How the results depend on the processing

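The ratio of PAC3 to PAC2, 1.05, was 0.897 under the original call and 0.933 with exactly 1 detected barcode, within its interval. No other ratio of shares crossed 1. Differences in pseudotime were recomputed for ERI4 cells, ERI3, PAC1 and PAC3 only, and none changed sign. In the main cluster alone, however, both medians were 15.6 in ERI3 and in PAC3, so the sign has no meaning there. Of 318 recomputed values 253 moved by less than the counting error or the interval of the median and 65 by more. The stated filter without cluster 13 and 10 neighbours moved none. Cause was not tested for any of them. No paired analysis was possible because no result comes from a test and each condition has 1 library.

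With all cells as the denominator the share of the lineage was 7.15% in ERI4 cells, 0.136% in UNT cells, 5.58% in ERI1, 18.01% in ERI3, 8.85% in PAC1, 4.60% in PAC2, 5.91% in PAC3, 4.88% in ERI4 nuclei and 0.121% in UNT nuclei, and the ratio of ERI4 to UNT was 40.3 in nuclei and 52.7 in cells. Under the first revision of the call the share was 16.6% in PAC1 and 8.15% in ERI4 nuclei, the ratio of ERI4 to UNT nuclei 32.9, the cluster 8 share 96.3% in ERI4 cells, the cluster 1 share 100% in UNT cells, the cluster 7 share 100% in ERI2 and the cluster 10 share 26.9% in ERI4 nuclei. Under the original call the shares were 9.12% in ERI4 cells, 9.42% in ERI1, 18.4% in PAC1, 12.5% in ERI4 nuclei and 0.486% in UNT nuclei, and the ratio of ERI4 to UNT nuclei was 25.7. The same clusters then held 97.6% in ERI4 cells, 100% in UNT cells, 100% in ERI2 and 60.7% in ERI4 nuclei.

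With exactly 1 detected barcode the share was 6.02% in ERI4 cells and 16.9% in PAC1, and the ratio of ERI4 to UNT cells 19.2. Cluster 8 held 99.0% in ERI4 cells, cluster 1 100% in UNT cells, cluster 7 100% in ERI2 and cluster 10 31.8% in ERI4 nuclei, and median pseudotime was 17.1 in ERI4 cells, 13.3 in UNT cells (2 cells) and 23.5 in ERI4 nuclei. Within the common UMI window the share was 22.5% in ERI3 and 31.7% in ERI4 nuclei. There cluster 8 held 94.5% in ERI4 cells, cluster 1 100% in UNT cells, cluster 7 100% in ERI2 and cluster 0 0% in UNT nuclei (6 nuclei), median pseudotime was 24.6 in ERI4 nuclei, the S share 26.5% in ERI3, and the G2M share 41.2% in ERI3, 51.0% in PAC1 and 22.2% in PAC2 (18 cells).

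The mean pseudotime was 18.1 in ERI4 cells, 15.8 in ERI3, 15.8 in PAC1, 15.9 in PAC3 and 23.4 in ERI4 nuclei. In the main cluster alone the median was 17.2 in ERI4 cells, 14.6 in PAC2 and 25.02 in ERI4 nuclei, and the lineage minus the others was -1.27 in ERI4 cells, -3.59e-08 in ERI3, -0.0244 in PAC1 and -3.41e-09 in PAC3. With a G1 threshold of 0.05 the S share was 24.1% in ERI4 cells, 26.9% in ERI1, 17.3% in ERI3 and 17.0% in PAC1. With 100 neighbours the same-barcode mean was 66.9% in PAC3. Values from ERI2, UNT cells and UNT nuclei rest on 12 to 15 cells of the lineage, so only large differences there can be seen.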
